A study of Rattus norvegicus with 4 samples.

Results

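Radial glia and astrocyte genes were examined in the hippocampus of Wistar rat pups on postnatal day 1. The group was fixed by name, with earlier results of these data known. It holds 10 genes: Gfap, Slc1a3, Slc1a2, Aqp4, Fabp7, Vim, Nes, Aldh1l1, S100b and Gja1. Each of them was found by its symbol as a single row among the 17445 rows of the 4 files, and all 10 passed the filter of a mean of at least 1 FPKM that left 13542 rows. Their gene IDs in the files are 24387 (Gfap), 29483 (Slc1a3), 29482 (Slc1a2), 25293 (Aqp4), 80841 (Fabp7), 81818 (Vim), 25491 (Nes), 64392 (Aldh1l1), 25742 (S100b) and 24392 (Gja1). FPKM is a fragment count scaled for the length of the gene and for the depth of the library, so that levels can be compared between genes.

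The libraries came from pups whose dams, 10 weeks old, received bisphenol A (BPA), an estrogenic plasticizer, or its vehicle daily from gestation day 1 until birth. The male BPA and female BPA groups were exposed to 5000 µg/kg of maternal body weight. The male vehicle and female vehicle groups were exposed to the vehicle alone. Each group is 1 library made from 3 pooled hippocampi, so that no group has a replicate library, and the spread between pups within a pool is not seen. The question is how the radial glia and astrocyte genes stood in BPA pups against vehicle pups of the same sex. The libraries held about 8660000 to 8940000 fragments, as estimated from the steps between low FPKM values.

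Radial glia are the stem cells of the developing cortex and hippocampus. Their cell bodies lie along the ventricle, their processes guide migrating neurons, and around birth many of them turn into astrocytes while others remain as the stem cells of the dentate gyrus. Astrocytes then take up glutamate from synapses, buffer potassium and water, and couple to each other through gap junctions. The 10 genes span this course, from nestin and brain lipid-binding protein in stem cells to aquaporin-4 and the glutamate transporters in maturing astrocytes. In a whole tissue, fewer cells of a type and less RNA per cell cannot be told apart.

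All 10 genes were clearly expressed, at means over the 4 libraries from 12.2 FPKM for Aldh1l1 to 847.0 FPKM for Fabp7. Of the 10 genes, 8 were lower in both BPA libraries than in both vehicle libraries: Gfap, Slc1a3, Slc1a2, Aqp4, Fabp7, Vim, S100b and Gja1. Of all rows, 19.9% had both BPA libraries below both vehicle libraries, and 13.8% had both above, a pattern that none of the 10 genes showed. The mean BPA level of these 8 genes was 62.6% (Gja1) to 92.8% (Fabp7) of the mean vehicle level. The remaining genes were higher in the male BPA library and lower in the female BPA library than in vehicle, Nes at 106.3% and 98.4% and Aldh1l1 at 127.7% and 95.8% of the vehicle level. None of the 10 genes passed an adjusted p under 0.05 in limma with 2 BPA against 2 vehicle libraries, so that no single gene can be called changed.

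All 10 genes matched RefSeq promoter windows by symbol. The windows of Fabp7, Slc1a2 and S100b are shown, as genes that stood together below vehicle and hold a motif of a factor of the astrocyte lineage. Each line gives the 250 bases before a RefSeq start site in the rat assembly GRCr8, on the strand of the gene, with matches to the short recognition motif of nuclear factor I (NFI) in capitals. NFI proteins are transcription factors that start the formation of astrocytes. The motif was searched as TTGGC on both strands, so that GCCAA is its reverse, and matches to the STAT site (TTCNNNGAA) and the TATA box (TATAAA) would also be in capitals.
Fabp7, chr20:37669356-37669605, plus strand: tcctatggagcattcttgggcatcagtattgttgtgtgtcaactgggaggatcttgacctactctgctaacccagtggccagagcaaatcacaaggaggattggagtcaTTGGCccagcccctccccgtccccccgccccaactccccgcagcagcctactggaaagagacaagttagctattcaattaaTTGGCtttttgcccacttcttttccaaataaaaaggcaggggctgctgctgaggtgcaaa
Slc1a2, chr3:109507697-109507946, plus strand: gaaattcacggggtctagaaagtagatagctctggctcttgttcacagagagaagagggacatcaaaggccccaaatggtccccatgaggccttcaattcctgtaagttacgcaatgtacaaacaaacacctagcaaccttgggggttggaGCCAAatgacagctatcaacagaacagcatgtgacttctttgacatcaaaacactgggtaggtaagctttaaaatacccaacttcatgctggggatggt
S100b, chr20:12381082-12381331, minus strand: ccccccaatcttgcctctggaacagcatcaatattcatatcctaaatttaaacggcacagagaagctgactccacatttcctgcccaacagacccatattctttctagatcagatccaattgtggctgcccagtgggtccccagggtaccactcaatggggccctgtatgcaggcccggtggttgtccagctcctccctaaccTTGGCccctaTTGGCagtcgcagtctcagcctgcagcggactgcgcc
In the Fabp7 window the matches began 141 and 60 bases before the start site, in the S100b window 47 and 37 bases before it, and in the Slc1a2 window 99 bases before it. Slc1a2 has another RefSeq start site, whose window at chr3:109459859-109460108 held no match.

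Over all 14 RefSeq windows of the 10 genes, 7 held the NFI motif, and by gene it was in 5 of 10, the others being Slc1a3 and Vim. The 3 windows of Slc1a3 overlap and share 1 match. It was in 42.3% of all 27457 genes with a window, so that these letters were about as frequent elsewhere. The STAT site was in none of the 14 windows, against 8.19% of all genes. The nuclear receptor motif (AGGTCA), which estrogen receptors bind in pairs, was in the windows of Fabp7 and Gfap, against 14.8% of all genes. The core of the Notch factor RBPJ (TGGGAA) was found for 3 of 10 genes and the SOX core (ACAAT) for 2 of 10, against 23.2% and 31.4% of all genes. The TATA box was found for Vim alone, against 14.1% of all genes. The motifs were searched on both strands without regard to overlaps between them, and a match is a run of letters and not a bound site.

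The levels spanned a steep order. Fabp7, brain lipid-binding protein, which carries fatty acids in radial glia, led with 883.6 FPKM in male vehicle, 792.0 in male BPA, 873.3 in female vehicle and 839.2 in female BPA. Vim, the filament protein vimentin, had a mean of 201.7 FPKM, and Slc1a3, the glutamate transporter GLAST of radial glia and astrocytes, had a mean of 150.9 FPKM. These 3 genes stood apart from each other and from the rest, since their ranges over the 4 libraries did not overlap. From Slc1a2, at a mean of 42.7 FPKM, to Aldh1l1 the range of each gene over the libraries overlapped that of the next. Within the libraries, Gfap was above Aqp4 and Aqp4 above Gja1 in all 4, whereas Slc1a2 was above Gfap in 1 of 4 and Gja1 above Nes in 2 of 4. Nes was above S100b and S100b above Aldh1l1 in 3 of 4. Gfap followed at 42.0 FPKM, Aqp4 at 31.5, Gja1 at 22.7, Nes at 21.0 and S100b at 17.3. Fabp7 alone made up 59.5% to 63.2% of the summed level of the 10 genes in a library.

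The genes also differed in how steady they were. Nes was the steadiest, with a highest level 1.06 times its lowest, and Fabp7 and Vim followed with 1.12 and 1.15 times. Gja1 spanned the widest range of 2.0 times, and S100b, Slc1a2 and Aqp4 spanned 1.52 to 1.59 times.

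**Figure D1:**
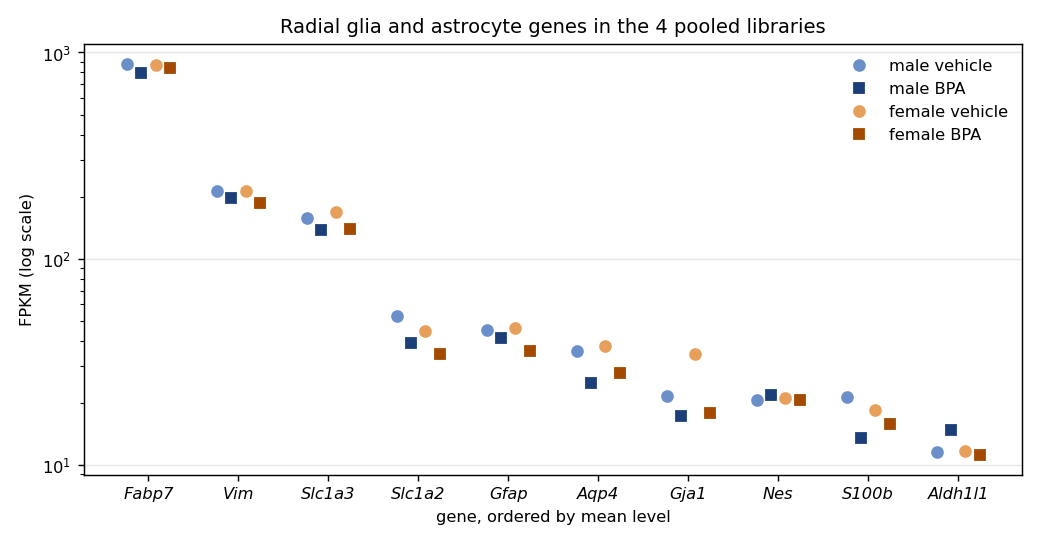
FPKM of the 10 genes in the 4 pooled libraries on a log axis, ordered by mean level, with circles for vehicle and squares for BPA. For 8 genes both squares lie below both circles, while Nes stays between 20.5 and 21.8 FPKM and only the male BPA square of Aldh1l1 stands above the rest.

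The filament proteins come first. Gfap, the filament of astrocytes and of stem cells in the dentate gyrus, was at 45.2 FPKM in male vehicle and 41.3 in male BPA, and at 46.1 in female vehicle and 35.5 in female BPA. The vehicle libraries were close to each other and both BPA libraries were lower, the female one more so. The difference of log2(FPKM + 1), the scale of all differences given here unless stated, was -0.12 in males and -0.37 in females, and -0.25 over both sexes (standard error 0.11, limma adjusted p = 0.973).

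Vim was at 213.3 FPKM in male vehicle and 195.8 in male BPA, and at 212.1 in female vehicle and 185.4 in female BPA. The vehicle libraries nearly coincided and the BPA libraries lay at 91.8% of vehicle in males and 87.4% in females. Over both sexes the difference was -0.16 (standard error 0.09, limma adjusted p = 0.973).

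Nes, which encodes the stem cell filament nestin, was at 20.5 FPKM in male vehicle and 21.8 in male BPA, and at 21.0 in female vehicle and 20.7 in female BPA. The groups overlapped. The difference over both sexes was 0.03 (standard error 0.11, limma adjusted p = 0.988). The 3 filament genes together had a mean difference of -0.12.

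Both glutamate transporters were lower with BPA. Slc1a3 was at 157.9 FPKM in male vehicle and 138.0 in male BPA, and at 168.1 in female vehicle and 139.5 in female BPA. The BPA libraries were nearly equal to each other and below both vehicle libraries. Its difference was -0.19 in males and -0.27 in females, and -0.23 over both sexes (standard error 0.09, limma adjusted p = 0.973).

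Slc1a2, which encodes GLT-1, the main glutamate transporter of mature astrocytes, was at 52.9 FPKM in male vehicle and 38.8 in male BPA, and at 44.5 in female vehicle and 34.6 in female BPA. Both BPA libraries were lower than both vehicle libraries, although the male level was above the female level within each treatment. Its difference was -0.44 in males and -0.36 in females, and -0.40 over both sexes (standard error 0.13, limma adjusted p = 0.973). The level of Slc1a3 over that of Slc1a2 was 2.99 in male vehicle, 3.55 in male BPA, 3.78 in female vehicle and 4.04 in female BPA.

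Among the channels, Aqp4 showed the most even difference. Aqp4, the water channel of astrocyte endfeet, was at 35.8 FPKM in male vehicle and 24.9 in male BPA, and at 37.7 in female vehicle and 27.8 in female BPA. Each BPA library stood well below its vehicle library, at 69.5% in males and 73.5% in females. The difference was -0.51 in males and -0.43 in females, and -0.47 over both sexes (standard error 0.11, limma adjusted p = 0.973). The level of Fabp7 over that of Aqp4 was 24.7 and 23.1 in the male and female vehicle libraries and 31.9 and 30.2 in the male and female BPA libraries.

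Gja1, which encodes connexin 43, the gap junction protein of astrocytes that fibroblasts also make, was at 21.5 FPKM in male vehicle and 17.2 in male BPA, and at 34.4 in female vehicle and 17.8 in female BPA. The female vehicle library stood apart from the other 3. The difference was -0.30 in males and -0.92 in females, and -0.61 over both sexes (standard error 0.21, limma adjusted p = 0.973). Without the female vehicle library it was -0.28. In that library the summed level of 12 markers of meninges and fibroblasts, such as Col1a1 and Col1a2, all of which passed the filter, was 397.6 FPKM, against 91.7 to 111.2 FPKM in the other 3 libraries. The part of these cells in the Gja1 difference was not tested.

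The binding proteins and the enzyme went different ways. S100b, a calcium-binding protein of maturing astrocytes and ependymal cells, was at 21.4 FPKM in male vehicle and 13.5 in male BPA, and at 18.5 in female vehicle and 15.8 in female BPA. Both BPA libraries were below both vehicle libraries, with the wider gap in males. Its difference was -0.63 in males and -0.22 in females, and -0.43 over both sexes (standard error 0.14, limma adjusted p = 0.973).

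Fabp7, whose values are given above, was lower in BPA by a small margin, with a difference of -0.16 in males and -0.06 in females (-0.11 over both sexes, standard error 0.10, limma adjusted p = 0.973). Aldh1l1, a folate enzyme and broad astrocyte marker, was at 11.5 FPKM in male vehicle and 14.7 in male BPA, and at 11.6 in female vehicle and 11.1 in female BPA. The male BPA library stood above the other 3, which were nearly equal. Its difference was 0.33 in males and -0.06 in females, and 0.14 over both sexes (standard error 0.16, limma adjusted p = 0.973).

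Over the 10 genes, the median difference was -0.18 in males and -0.24 in females, where the median over all rows was -0.002 and -0.04. With a threshold of 0.3 on the log2 scale, 4 of the 10 genes were lower in males (S100b, Aqp4, Slc1a2 and Gja1), where 9.61% of all rows were, and 4 were lower in females (Gja1, Aqp4, Gfap and Slc1a2), where 17.0% were. Gja1 lay just past this threshold in males and Slc1a3 just short of it in females. Aldh1l1 was higher by at least 0.3 in males, as were 8.84% of all rows, and none of the genes was so in females, against 8.15%. In females the balance over all rows depends on the scaling, with 1104 rows higher and 2302 lower as deposited and 1523 higher and 1584 lower after quantile normalization. Aqp4, Slc1a2 and Gja1 were lower by at least 0.3 in both sexes, as were 3.41% of all rows. None of the 10 genes was higher by as much in both sexes, against 1.60%. Lower by any amount in both sexes were 8 of the 10 genes and 31.6% of all rows, and higher in both were none and 24.4%. Among rows with a mean of at least 5 FPKM, the share lower by at least 0.3 in both sexes was 1.73%, and the same 3 genes stood in it.

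With no adjustment, a p under 0.05 in limma was reached by Aqp4, Slc1a2, S100b, Gja1 and Slc1a3, 5 of the 10 genes, all lower in BPA. Since each arm holds 1 male and 1 female pool, these p-values measure the spread between pools that also differ in sex. Among all rows 3.11% reached it with a lower and 1.60% with a higher level in BPA, and 0% passed after adjustment. In rows these were 421 lower and 216 higher, or 341 lower and 284 higher after quantile normalization. In the limma fit that also held sex, adjusted p was 0.184 for Aqp4, 0.262 for Slc1a2, 0.356 for Gja1 and 0.944 for Nes, and none of the 10 genes passed, as 0.0148% of all rows did. In that fit 6 of the 10 genes, now with Gfap, were lower at an unadjusted p under 0.05, against 5.38% of all rows, and none was higher, against 3.60%. With 2 pools on each side, 0.333 is the smallest two-sided p that exact permutation could reach.

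The fragments behind each value bound its counting error. Estimated from FPKM, row length and depth, they ranged from 169 fragments for S100b in male BPA to 5619 for Slc1a3 in female vehicle. The log2 ratio of BPA to vehicle had an exact 95% interval from counting of -0.64 to -0.41 in males and -0.55 to -0.33 in females for Aqp4, and of -0.60 to -0.29 and -0.53 to -0.20 for Slc1a2. For S100b it was -0.96 to -0.39 in males and -0.52 to 0.05 in females. For Nes the intervals were -0.03 to 0.21 and -0.14 to 0.10, so that a change of Nes was not detectable at this depth in either sex. These intervals cover counting error alone and not the spread between pups.

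**Figure D2:**
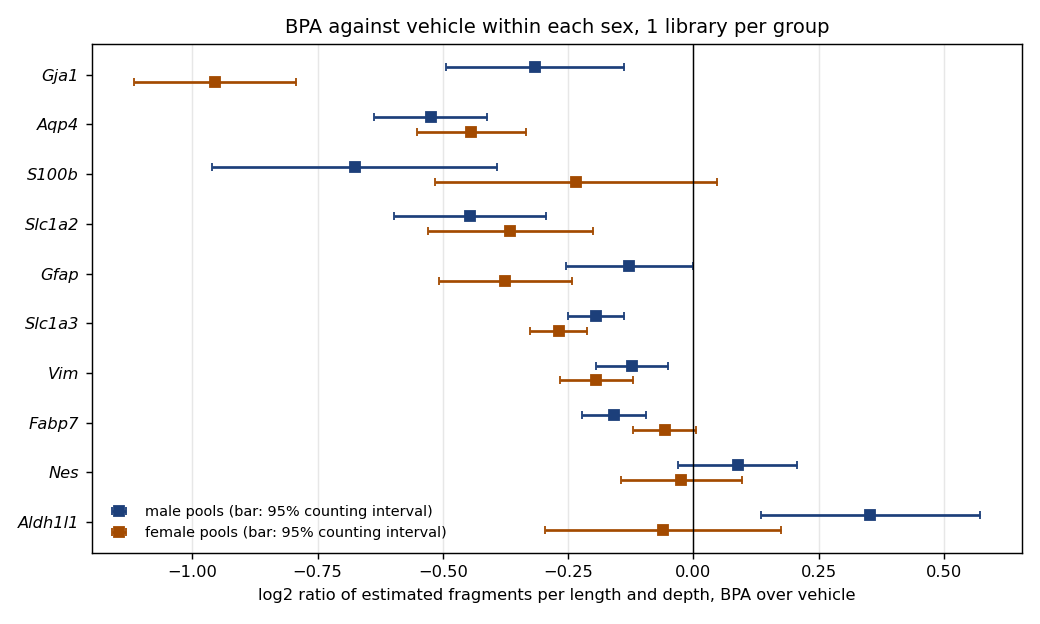
Log2 ratio of BPA to vehicle for each gene within males and within females, with 1 library per group, where bars are exact 95% intervals from the estimated fragment counts and cover counting error only. In both sexes the intervals of Gja1, Aqp4, Slc1a2, Gfap, Slc1a3 and Vim lie below 0, those of Nes include it, those of S100b and Fabp7 reach it in females, and Aldh1l1 lies above 0 in males only.

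By sex the 10 genes overlapped. None of them had both female libraries below both male libraries, as 22.5% of all rows did, or both above, as 19.8% did. In limma with 2 female against 2 male libraries, the adjusted p of the 10 genes ranged from 0.695 (Aldh1l1) to 0.993 (S100b), and 0.00738% of all rows passed. At an unadjusted p under 0.05 none of the 10 genes was lower or higher in females, against 6.76% and 3.88% of all rows. In the fit that also held treatment, Slc1a2 was lower and Gja1 higher in females at an unadjusted p under 0.05, against 8.83% and 5.49% of all rows. Neither passed after adjustment there (limma adjusted p = 0.298 and 0.326), as 0.406% of all rows did. Between the vehicle libraries, Gja1 was higher in females by 0.66 and the other 9 genes differed by less than 0.3 on the log2 scale, where 24.8% of all rows differed by at least 0.3. Between the BPA libraries, Aldh1l1 had a female minus male difference of -0.37 and the other 9 genes differed by less than 0.3, where 23.7% of all rows differed by at least 0.3.

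A wider set of genes of the same lineage was set beside these 10. Of 34 genes of the astrocyte lineage and its maturation, 33 were found and 32 passed the filter. Of the 32, 16 had both BPA libraries below both vehicle libraries, against 19.9% of all rows, and 2 had both above, against 13.8%. None passed an adjusted p under 0.05 in limma, and an unadjusted p under 0.05 was reached by 7, all lower in BPA, against 3.11% of all rows. The median difference was -0.09 in males and -0.23 in females.

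Apoe, the lipid carrier that astrocytes secrete, was at 523.0 FPKM in male vehicle, 409.4 in male BPA, 423.9 in female vehicle and 320.9 in female BPA. Glul, glutamine synthetase, which turns the glutamate taken up into glutamine, was at 128.5 FPKM in male vehicle, 110.0 in male BPA, 141.5 in female vehicle and 112.6 in female BPA. Both were lower in each BPA library than in its vehicle library, with a limma adjusted p = 0.973 each. Gpr37l1, a receptor of astrocytes named here after its values were seen, had the smallest adjusted p of the list in limma (0.794), with 12.1 and 6.30 FPKM in males and 12.6 and 7.18 FPKM in females. Gpr37l1, Apoe, Acsbg1 and Slc4a4, the last 2 also named after their values were seen, were lower by at least 0.3 on the log2 scale in both sexes, 4 of 32 where 3.41% of all rows were.

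Other genes of this list were nearly level or differed in 1 sex. Sox9 and Nfia, transcription factors that begin the formation of astrocytes, differed by 0.07 and 0.03 over both sexes, and Aldoc, the aldolase of astrocytes, by -0.04. Kcnj10, the potassium channel Kir4.1, was between 6.33 and 7.04 FPKM in all libraries. Clu, the secreted chaperone clusterin, was at 72.7 FPKM in male vehicle, 73.0 in male BPA, 58.8 in female vehicle and 49.2 in female BPA. Sparcl1, which encodes the synapse-promoting protein hevin, was at 252.3 FPKM in female vehicle and 179.5 in female BPA, against 195.0 and 185.1 FPKM in the male libraries. Gjb6, connexin 30, was at 4.51 FPKM in female vehicle and at 0.47 to 1.08 FPKM in the other libraries. These levels rested on 67 fragments in female vehicle and on 7 to 16 in the others. As for Gja1, the high library was the female vehicle one with the high meningeal markers, and their part was not tested.

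Of 24 genes of radial glia and progenitors, 22 were found and all of these passed the filter. Of these, 4 had both BPA libraries below both vehicle libraries, where 19.9% of all rows did, and 1 had both above, where 13.8% did. The median difference was -0.04 in males and -0.09 in females, and an unadjusted p under 0.05 in limma was reached by none. Sox2, a stem cell transcription factor, was at 36.3 and 35.2 FPKM in the male vehicle and BPA libraries and at 27.5 and 28.03 FPKM in the female ones. Pax6, which patterns the cortical stem cells, was at 5.17 FPKM in male vehicle and 6.61 in male BPA, and at 4.62 and 5.20 FPKM in the female libraries. Hopx, a marker of stem cells of the dentate gyrus, differed by -0.12 over both sexes, and Tnc, the matrix protein tenascin-C, by 0.02. Ptprz1, a receptor phosphatase of radial glia, was at 117.4 and 100.5 FPKM in males and at 131.5 and 117.3 FPKM in females, a difference of -0.19 (standard error 0.12, limma adjusted p = 0.973).

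The Notch target Hes5, which keeps stem cells from differentiating, was at 10.6 FPKM in male vehicle, 6.26 in male BPA, 6.33 in female vehicle and 3.92 in female BPA. It rested on 18 fragments in female BPA, and the counting interval of its log2 ratio in females was -1.62 to 0.21. Hes1, a target of the same pathway, was at 5.68 and 3.97 FPKM in males and 3.61 and 3.57 FPKM in females. It rested on 43 to 69 fragments, and the counting interval of its log2 ratio in males was -1.09 to 0.03. Between the sexes, 12 of the 22 radial glia genes had both female libraries below both male libraries, where 22.5% of all rows did. Both were above for 3 of the 22, where they were for 19.8% of all rows. In limma 6 of the 22 were lower in females at an unadjusted p under 0.05, against 6.76% of all rows. None was higher, against 3.88%, and none passed an adjusted p under 0.05.

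Genes of reactive astrocytes, which rise after injury and inflammation, were mostly at low levels. Of 20 such genes 18 were found and 9 passed the filter. Lcn2, a secreted marker of reactive astrocytes, was at 0.84 to 1.27 FPKM, or 6 to 9 fragments, in the 4 libraries. Cd44, a receptor for hyaluronan, was at 3.11 to 3.96 FPKM, and Stat3, the factor that drives Gfap in reactive astrocytes, at 14.3 to 16.8 FPKM. Of the 9 genes 2 had both BPA libraries below both vehicle libraries and 1 had both above, where 19.9% and 13.8% of all rows did. Serpina3n was not among the rows by symbol.

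**Figure D3:**
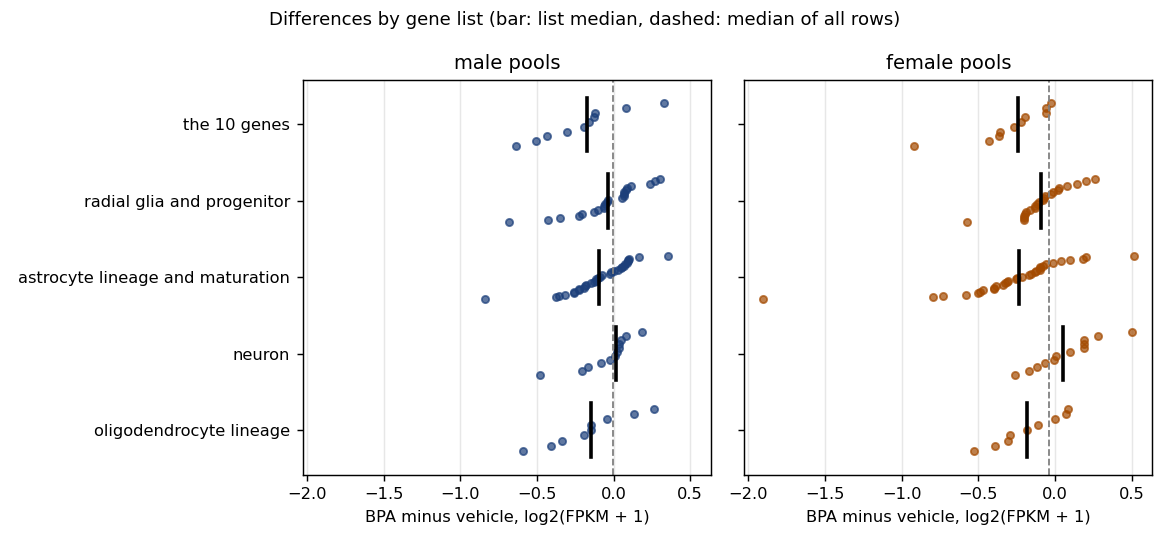
BPA minus vehicle on the log2(FPKM + 1) scale for each gene of 5 lists, in male pools and in female pools, with black bars at the list medians and a dashed line at the median of all rows. The 10 genes and the astrocyte list are shifted to the left in both sexes. Their medians are -0.18 and -0.09 in males and -0.24 and -0.23 in females, while the neuron list centres at 0.01 and 0.05. The shift is not limited to them, since the oligodendrocyte lineage list has medians of -0.15 in males and -0.18 in females.

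Markers of other cell types differed between the libraries as well. The summed level of 12 neuron markers, such as Rbfox3 and Tubb3, all of which passed the filter, was 3672.9 FPKM in male vehicle, 3734.6 in male BPA, 3545.3 in female vehicle and 3963.0 in female BPA. Their median difference was 0.01 in males and 0.05 in females. The summed level of the 10 glial genes was 1463.5 FPKM in male vehicle, 1298.0 in male BPA, 1467.4 in female vehicle and 1327.3 in female BPA. The 10 oligodendrocyte lineage markers, which include Olig1 and Olig2, summed to 174.1 and 136.5 FPKM in males and 143.8 and 121.0 FPKM in females. Over the 9 of them that passed the filter, the median difference was -0.15 in males and -0.18 in females.

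The 10 markers of cycling cells, such as Mki67 and Top2a, summed to 123.7 and 107.2 FPKM in males and 126.7 and 111.5 FPKM in females. Of these, 6 of the 10 had both BPA libraries below both vehicle libraries, against 19.9% of all rows. Their median difference was -0.17 in males and -0.18 in females. The 12 markers of choroid plexus and ependyma, tissues of the ventricles that in part express Vim and S100b, summed to 293.6 FPKM in male vehicle, 728.4 in male BPA, 23.4 in female vehicle and 60.2 in female BPA. That sum was higher in BPA than in vehicle in each sex, through Ttr, the carrier transthyretin. Ttr was at 256.5 FPKM in male vehicle, 689.5 in male BPA, 3.96 in female vehicle and 42.4 in female BPA. Without Ttr the sum was 37.1 and 38.9 FPKM in the male vehicle and BPA libraries and 19.4 and 17.8 FPKM in the female ones, and the median difference over the 9 markers tested was 0.50 in males and -0.12 in females. The markers of endothelium and pericytes, such as Cldn5 and Pecam1, summed to 137.9 FPKM in male vehicle, 129.8 in male BPA, 157.9 in female vehicle and 127.3 in female BPA. Of these, 5 of 10 had both BPA libraries below both vehicle libraries, against 19.9% of all rows, with a median difference of -0.17 over both sexes. The markers of microglia, such as Cx3cr1 and Csf1r, summed to 62.0 to 73.6 FPKM. Of the 6 markers of intermediate progenitors, Neurod1 and Btg2 alone were found, and the red blood cell list, such as Hbb and Hba1, summed to 1190.9 to 1475.2 FPKM. LOC689064 of that list was the 1 list gene past the threshold in the limma fit that also held sex (adjusted p = 0.0203). The part of these cells in the differences of the 10 genes was not tested.

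**Figure D4:**
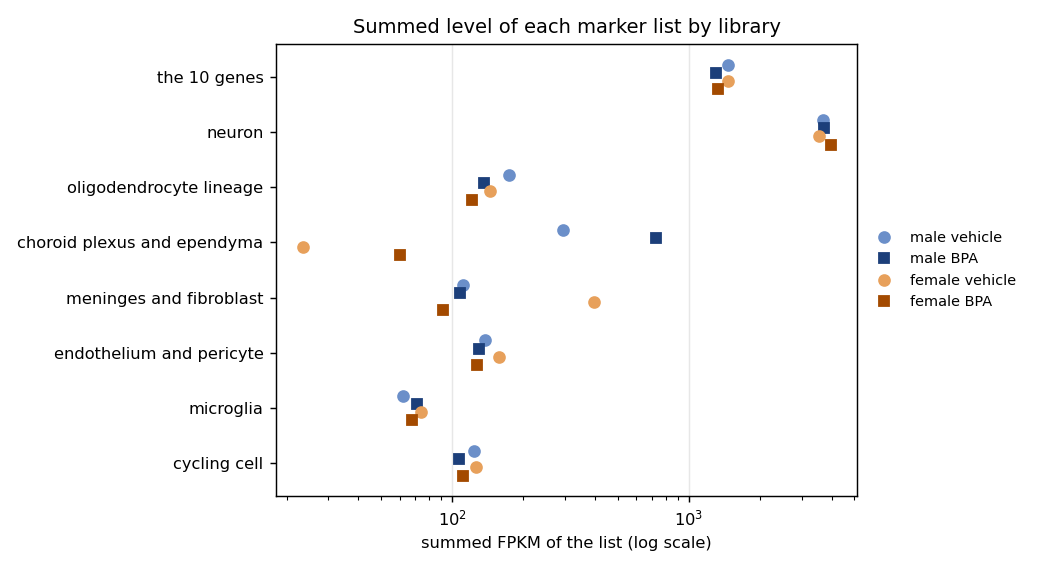
Summed FPKM of the 10 genes and of 7 marker lists in each library, on a log axis, with circles for vehicle and squares for BPA. The 10 genes sum to less in both BPA libraries than in both vehicle libraries, as do the oligodendrocyte, meningeal, endothelial and cycling lists, while choroid plexus markers separate the male from the female libraries and meningeal markers are highest in female vehicle.

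The count of 8 of 10 genes with both BPA libraries below both vehicle libraries was computed again without each library. Leaving out a library only loosens this condition, so the count could not fall below 8. It therefore cannot show whether meningeal or choroid plexus cells played a part, which was not tested. Without the female vehicle library the count was 8 genes (Nes and Aldh1l1 being the others), where 36.4% of all rows lay below with 3 libraries. Without the male BPA library it was 9 genes, all but Nes, against 39.7% of all rows. Without the male vehicle or the female BPA library it was 8 genes, against 38.6% and 33.3%. Quantile normalization and scaling to the median gave 8 genes as well, against 16.6% and 18.7% of all rows.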

How the data were processed

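RNA-seq was made on 4 libraries, 1 for each sex and treatment, each from 3 pooled hippocampi. The deposited values are FPKM, which the authors computed per gene and per new gene model and wrote with 2 decimals, none of them below 0.01. The submitters' processing notes name HISAT 0.1.6, Bowtie2 2.2.5, RSEM and the rat build rn6, without their roles. Genes were joined by gene ID over the 4 files, which left 16375 rows present in each, and rows with a mean of at least 1 FPKM were kept. BPA and vehicle, and female and male, were compared with 2 libraries against 2 by limma 3.58.1 in R 4.3.3 on log2(FPKM + 1), with a trend and Benjamini-Hochberg adjustment over the 13542 rows. Within a sex there is 1 library against 1 and no test.

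Depth was estimated from the steps between low FPKM values, at which 94.5% to 98.3% of the values checked came out within 0.15 of a whole fragment. Exact 95% intervals for ratios and the fragment numbers rest on this estimate. The fold thresholds were 0.3 and 0.5 on the log2 scale. Both computations were tested on simulated data. In the limma comparison of BPA and vehicle, 0 of 200 rows simulated with a log2 difference of 0.5 were recovered, beside 3 false calls. At a log2 difference of 1, 178 of 200 were recovered, beside 20 false calls. For differences of 0.5 or smaller, a gene that does not pass after adjustment is therefore not shown to be unchanged.

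Alternatives changed the pseudocount, the filter, the scaling, the covariate, the use of new gene models and the libraries included. The 10 genes and the gene lists were chosen with earlier results of these data known. The named genes are the 10, 20 others of the glial lists chosen by name, and any list gene past an adjusted p of 0.05. The first 2 of each list of other cell types are also named. Outside these rules, Gpr37l1, Acsbg1 and Slc4a4 were named after their values were seen. RefSeq promoter windows come from the assembly GRCr8, and no coordinate was carried over from rn6.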

Additional observations from a re-analysis of the deposited data

Results flagged for a closer look

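For 9 of the 28 named glial genes that were tested, the male and the female difference of BPA and vehicle had opposite signs, as they did for 43.2% of all rows. With 1 library per sex and treatment, none of these differences between the sexes could be tested. Among the 10 genes these were Nes, with 0.08 in males and -0.02 in females on the log2 scale, 0.106 apart, and Aldh1l1, with 0.33 and -0.06, 0.385 apart.

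The male minus female gap was 0.262 for Nfia, 0.258 for Clu, 0.174 for Tnc, 0.174 for Kcnj10 and 0.165 for Stat3, each higher in male BPA and lower in female BPA than in the vehicle library of the same sex. It was -0.073 for Sox2 and -0.193 for Cd44, which were lower in male BPA and higher in female BPA. The counting intervals of Kcnj10, Stat3, Sox2 and Cd44 covered both signs in each sex, and that of Clu did so in males. Those of Nfia and Tnc did not in either sex.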

How the results depend on the processing

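None of the 10 genes passed an adjusted p under 0.05 in limma under any alternative run. Over all rows, BPA against vehicle gave 0 rows in the fit as reported, with 637 at an unadjusted p under 0.05. It gave 1 with new gene models added to their gene, 2 with sex as a covariate, and 0 to 3 when each library was left out, where the lone library of an arm is assumed to vary like the other arm. Female against male gave 1 row, and 21 with a mean of at least 5 FPKM, 10 with new gene models added, 55 with treatment as a covariate, and 1 to 2 with each library left out. Rows past 0.3 on the log2 scale went from 2498 to 1021 in males and from 3406 to 1651 in females at a mean of at least 5 FPKM. After quantile normalization 3 of the 10 genes were lower by 0.3 in males and 5 in females, instead of 4 and 4. For BPA against vehicle, 5 of the 10 genes reached an unadjusted p under 0.05 in the limma fit as reported. With no filter on low values, or with scaling to the median, 4 did. Genes of the 3 further glial lists past the threshold in both sexes went from 6 at 0.3 to 2 at 0.5. The cause of these shifts was not tested.

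With each library left out, the BPA difference changed sign for Nes (-0.0066 to 0.068) and Aldh1l1 (-0.051 to 0.32) and kept its sign for the other 8. It was -0.94 (without male vehicle) to -0.28 (without female vehicle) for Gja1, -0.35 (without male BPA) to -0.14 (without female BPA) for Gfap, and -0.15 (without female BPA) to -0.066 (without male BPA) for Fabp7, against -0.61, -0.25 and -0.11 with all libraries. The female minus male difference changed sign for Gfap (-0.27 to 0.092), Slc1a3 (-0.081 to 0.19), Slc1a2 (-0.42 to 0.014), Aqp4 (-0.14 to 0.37), Fabp7 (-0.046 to 0.11), Vim (-0.14 to 0.053), Nes (-0.063 to 0.021), S100b (-0.31 to 0.32) and Gja1 (-0.11 to 0.81).

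The fit with sex as a covariate compares the BPA and vehicle pools within each sex, and so pairs them by sex. A block by replicate number could not be fitted, since the labels number no replicates and each group is 1 library. With 1 pool per group, sex and pool cannot be told apart, and dissection differences between pools were not tested.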
